A study of Mus musculus with 4 samples.

Results

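Molecular chaperones are proteins that bind other proteins while these fold, assemble, travel or come apart, and many of them were found as heat shock proteins because cells make more of them when warmed. Hsp70 proteins (Hspa genes) bind and release short stretches of a client in a cycle of ATP hydrolysis. J-domain proteins (Dnaj genes) bring clients to Hsp70 and stimulate its ATPase, while Hsp110 and Bag proteins help it to release its nucleotide. Hsp90 proteins act late, on kinases and receptors, CCT is a ring that folds actin and tubulin, and Fkbp and cyclophilin (Ppi) proteins turn the bonds before proline. In neurons, Hspa8 works with Dnajc5 on synaptic vesicles and with Dnajc6 in stripping clathrin from endocytosed vesicles.

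The genes described here are those whose symbol begins with Hsp, Dnaj, Cct or Bag and a digit, Fkbp or Ppi in a list of RNA editing sites from mouse cortex. The rule found 38 of the 4206 genes of the list, with 271 of its 28412 sites, and the other 4168 genes held 28141 sites. Of these 38 genes, 36 encode chaperones or folding enzymes. Hspg2, which encodes the matrix proteoglycan perlecan, and Ppip5k1, an inositol phosphate kinase, came in by their symbols only.

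The sites come from scDART-seq, which uses a fusion of APOBEC1, an enzyme that deaminates cytidine, with the YTH domain, a reader of N6-methyladenosine (m6A). The fusion turns cytosines beside a methylated adenosine into uracil, and YTHmut is the same fusion with a mutated YTH domain. Libraries were 4 sublibraries of 1 pool of dissociated cortical cells, in which APOBEC1-YTH and APOBEC1-YTHmut cells and replicates 1 and 2 were mixed. All mice had received tamoxifen at 20 mg/kg every 24 h for 5 days, starting at an age of 6 to 8 weeks, and cortex was taken 7 days after the last dose. Which promoter drives the fusion, and in which cells, is not given in the labels used here.

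The list gives each site its position, strand, gene and a whole number, here called the site count, whose lowest value was 3. What the count counts is not given, and neither sample, genotype nor cell type is attached to a site. There are therefore no replicates, no test was made, and every comparison is a description of 1 list. Intervals are 95% exact binomial (Clopper-Pearson) intervals for shares and order-statistic intervals for medians. They cover counting error only, and sites of a gene are not independent. Read depth is unknown, so low expression, low coverage and little editing of a gene cannot be told apart here.

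Chaperone sites with high counts are printed first, because the text below returns to them. Each is 21 nt, 5' to 3' on the RNA strand with T for U. Capitals mark the edited C and the A before it, the place of a candidate methylated adenosine. Coordinates are mm10, in which the GENCODE M21 annotation is also given. The first 6 sequences are the sites with counts of 509 (Hsp90ab1, chromosome 17, position 45570554), 135 (Hspa12a, chromosome 19, position 58797321), 96 (Hsp90ab1, position 45570423), 74 and 70 (Hsp90aa1, chromosome 12, positions 110694185 and 110694331) and 64 (Hspa12a, position 58797357), all on the minus strand. The others are the highest site of Hspa8 (48, chromosome 9, position 40802586, plus strand), its partner Dnajc5 (39, chromosome 2, position 181552244, plus strand) and Hsp90b1 (37, chromosome 10, position 86690892, minus strand).
Hsp90ab1, coding, count 509: ttggagaaggaACgggagaag
Hspa12a, 3' UTR, count 135: cttgccgcagaACtccctgcc
Hsp90ab1, coding, count 96: cagcggcaaagACaagaaaaa
Hsp90aa1, coding, count 74: gaaggatggtgACaagaagaa
Hsp90aa1, coding, count 70: gtggagaaggaACgagataag
Hspa12a, 3' UTR, count 64: tttgaatttcaACctattgtc
Hspa8, coding, count 48: ccatggttctgACaaagatga
Dnajc5, 3' UTR, count 39: agaaaaaaaaaACaaagcaaa
Hsp90b1, 3' UTR, count 37: ctatttaactgACtattggtg

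Most sites lay in a few members, about as in the rest of the list. Hspa12a had 43 sites, Hsp90aa1 25, Hsp90ab1 23, Hsp90b1 20, Dnajc5 17, Fkbp1a 16, Hspa8 15, Dnajb6 and Dnajc6 12 each, and Hspa5 10. These 10 genes with 10 or more sites, 26.3% of the members (13.4 to 43.1), held 193 sites, 71.2% of the total, and the genes with that many sites held 67.0% of the sites of other genes. Over all genes with a site, 16.9% had 10 or more, which lies inside the interval of the members. At the other end, 11 members had a single site. The median was 3 sites per chaperone gene (2 to 7), against 2 in the other genes. Per length of annotated exon, chaperone genes had 1.18 sites per kb pooled over genes with a site, against 0.947 in the other genes. Without Hspa12a the chaperone value was 1.04.

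**Figure D1:**
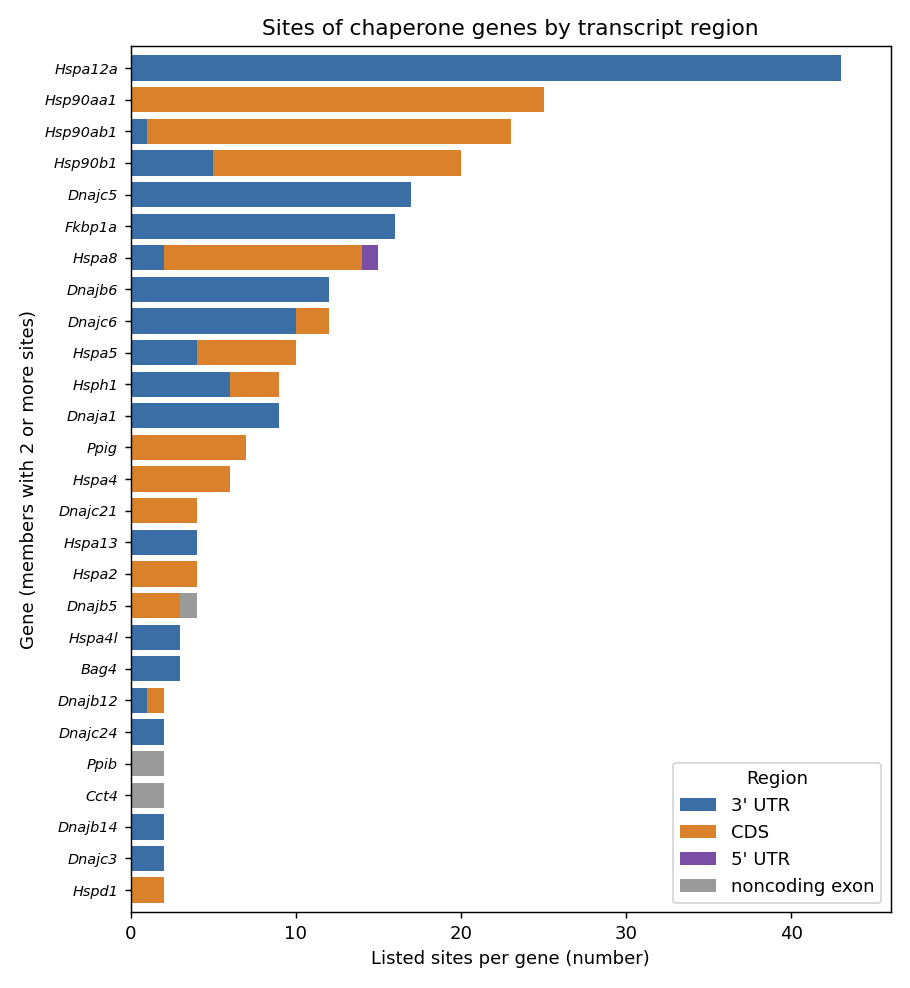
Number of listed sites (x axis) in each of the chaperone genes with 2 or more sites (y axis), coloured by transcript region. Hspa12a (43 sites), Dnajc5 (17) and Fkbp1a (16) are 3' UTR bars throughout, and Hsp90aa1 (25 sites) is a coding bar throughout.

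Site counts were of the usual size for the list. The median site count was 5 (4 to 6) at chaperone sites, against 4 at the sites of other genes, and the 90th percentile was 18 at chaperone sites, against 23 at those of other genes. Only 2 chaperone sites, the top sites of Hsp90ab1 and Hspa12a, reached a count of 100. That was 0.738% of chaperone sites (0.0895 to 2.64), against 2.0% of the sites of other genes, and by gene, 5.26% of chaperone genes (0.644 to 17.7) had such a site and 3.57% of all genes did. Both intervals include the value they are set against. The highest chaperone site ranked number 64 among all sites of the list.

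Families differed in how many of their annotated genes appeared. All 3 Hsp90 genes (68 sites) and 9 of 13 Hspa genes (87 sites) had a site, as did Hsph1. Among the J-domain proteins, 1 of 4 Dnaja, 6 of 13 Dnajb and 7 of 28 Dnajc genes were listed. Of the folding enzymes and rings, 3 of 9 CCT, 2 of 15 Fkbp and 2 of 13 cyclophilin genes were listed, and 1 of 6 Bag genes. None of the 8 genes with an Hspb symbol, most of which encode small heat shock proteins, had a site. Nor did Hspe1, the mitochondrial Hsp10. Cryab, a small heat shock protein gene outside the symbol rule, had 1 site with a count of 4. In all, 38 of 120 annotated symbols under the rule had a site, 31.7% (23.5 to 40.8), against 17.4% of protein-coding symbols. Since expression is not in the list, an absent gene such as Ppia, the cytosolic cyclophilin A, cannot be read as unmethylated.

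Hsp90 proteins are dimeric ATPases. Hsp90aa1 and Hsp90ab1 encode the inducible and the constitutive cytosolic form, and Hsp90b1 encodes the form of the endoplasmic reticulum (Grp94). Coding sequence held 62 of the 68 sites of these genes. All 25 sites of Hsp90aa1 were coding, as were 22 of 23 in Hsp90ab1 and 15 of 20 in Hsp90b1. The 3' UTRs of Hsp90ab1 and Hsp90b1 are short, 240 and 262 nt, and hold few RAC cytosines. A RAC cytosine is a C after an A that itself follows A or G. In these 3' UTRs 1 of 1 and 3 of 4 were listed, against 17 of 74 and 10 of 80 in coding sequence. In Hsp90aa1 the 3' UTR had 0 of 25 listed, against 18 of 83 in coding sequence. Among the 10 chaperone genes with 10 or more sites, 5 had most of their sites in coding sequence (50%, 18.7 to 81.3), and among all genes with that many sites 22.8% did. Of these 10, Hsp90aa1 and Hsp90ab1 had at least 90% coding sites, a level that 6.35% of all genes with 10 or more sites reached. At the other extreme, Hspa12a, Dnajc5, Fkbp1a and Dnajb6 had every site in the 3' UTR, as did 16.8% of all genes with that many sites.

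**Figure D2:**
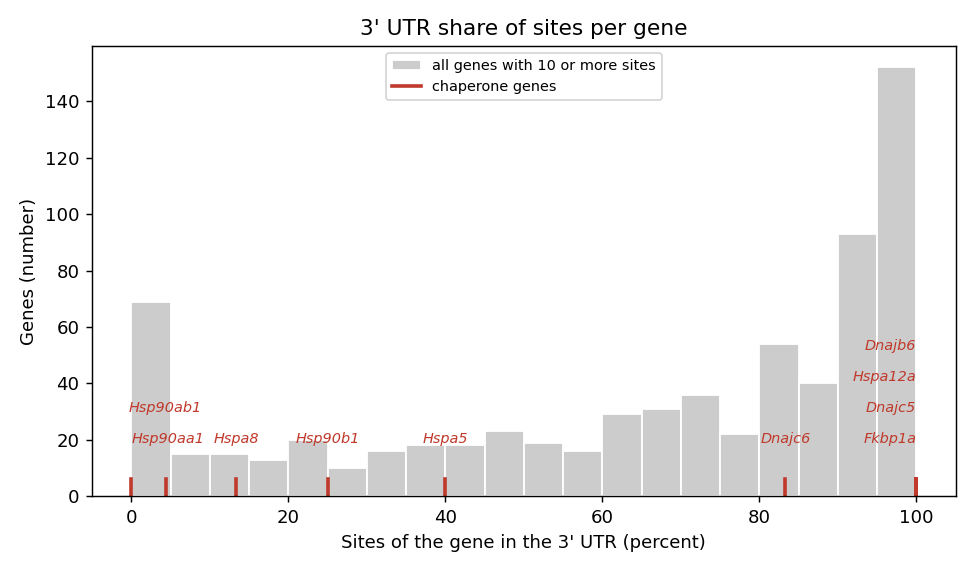
Histogram of the percent of a gene's sites that lie in the 3' UTR (x axis) over the 709 genes with 10 or more sites (y axis, number of genes), with the 10 chaperone genes marked by red ticks. Hsp90aa1, Hsp90ab1 and Hspa8 sit at the low end, and Hspa12a, Dnajc5, Fkbp1a and Dnajb6 sit at 100%.

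Within Hsp90ab1, 1 site dominated. The site at codon 221 had a count of 509, which was 62.8% of the summed counts of the gene, and the next had 96 (codon 264), 45 (codon 351), 26 (codon 260) and 26 (codon 546). In Hsp90aa1 the counts were spread more evenly, with 74 (codon 274), 70 (codon 226), 56 (codon 360), 25 (codon 294), 25 (codon 361) and 21 (codon 195). In both genes a single internal exon carried most of the signal. Exon 5 of Hsp90aa1, 321 nt long, held 10 sites and 56.6% of the counts, and exon 6 of Hsp90ab1, 309 nt long, held 9 sites and 81.4%.

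The 2 cytosolic proteins were 86.7% identical over 724 aligned codons, so their editing could be compared position by position. Of 25 coding sites in Hsp90aa1 and 22 in Hsp90ab1, 9 fell on the same aligned base, which is 36.0% of the sites of Hsp90aa1 and 40.9% of those of Hsp90ab1. The 9 shared positions held 59.2% of the coding counts of Hsp90aa1 and 75.2% of those of Hsp90ab1. The 5 shared pairs in which a gene reached a count of 20 are shown because they show how alike the surroundings are.
Hsp90aa1 codon 226, count 70: gtggagaaggaACgagataag
Hsp90ab1 codon 221, count 509: ttggagaaggaACgggagaag
Hsp90aa1 codon 360, count 56: aaagaaaaagaACaacatcaa
Hsp90ab1 codon 351, count 45: gaagaagaagaACaacatcaa
Hsp90aa1 codon 361, count 25: gaaaaagaacaACatcaagtt
Hsp90ab1 codon 352, count 16: gaagaagaacaACatcaaatt
Hsp90aa1 codon 294, count 25: aactcaacaaaACaaagccga
Hsp90ab1 codon 285, count 3: agctgaacaagACaaagccta
Hsp90aa1 codon 195, count 21: aagaagaccaaACagagtatt
Hsp90ab1 codon 190, count 4: aagaagaccagACagagtact

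Partners in the printed pairs differed by 2 to 4 of the 21 bases, and those at the shared positions not printed by up to 5. Their order of counts was not the same: codon 226 of Hsp90aa1 was below its partner, 70 against 509, whereas codons 294 and 195 were above theirs, 25 against 3 and 21 against 4. At the adjacent codons 360 and 361 both genes had the higher count at the earlier of the 2 codons.

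The shared and unshared positions were then sorted by motif. RAC denotes an edited C after an A that itself follows A or G, and in this list every site above the lowest count was RAC, in chaperone genes (169 of 169) as in the other genes. At 33 aligned positions both genes had a RAC. Of these, 8 were listed in Hsp90aa1, 10 in Hsp90ab1 and 7 in both. At 47 aligned positions where only Hsp90aa1 had a RAC, 10 were listed in Hsp90aa1 and 0 in Hsp90ab1. At 41 where only Hsp90ab1 had one, 7 were listed in Hsp90ab1 and 0 in Hsp90aa1. Because sites above the lowest count are RAC throughout the list, a C outside the motif could be listed at a count of 3 at most. A base other than C could not be listed at all. This split is therefore largely set by the list.

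In the alignment used, high sites without a partner faced a base other than C. A list of C-to-U sites can hold no site at such a base. Under this alignment the lack of a partner there is therefore set by the list. Codon 264 of Hsp90ab1, count 96, faced a base other than C in Hsp90aa1, and so did codon 546 with a count of 26. Codon 274 of Hsp90aa1, count 74, likewise faced a base other than C in Hsp90ab1. The aligned stretches are printed with their capitals at the same 2 bases in both genes.
Hsp90ab1 codon 264, count 96: cagcggcaaagACaagaaaaa
Hsp90aa1 codon 272, not listed: ggagaagaaggATggtgacaa
Hsp90aa1 codon 274, count 74: gaaggatggtgACaagaagaa
Hsp90ab1 codon 265, not listed: cggcaaagacaAGaaaaagaa
Hsp90ab1 codon 546, count 26: gctaccagaggACgaggaaga
Hsp90aa1 codon 555, not listed: acttccagaagATgaagagga
At codon 264 of Hsp90ab1 the aligned windows differed at 14 of 21 bases, and at codon 274 of Hsp90aa1 at 11, so the alignment is uncertain there. In the stretches printed, each of these 2 sites is the C of a gacaagaa run. Whether they are the same site in both genes cannot be told from this alignment.

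**Figure D3:**
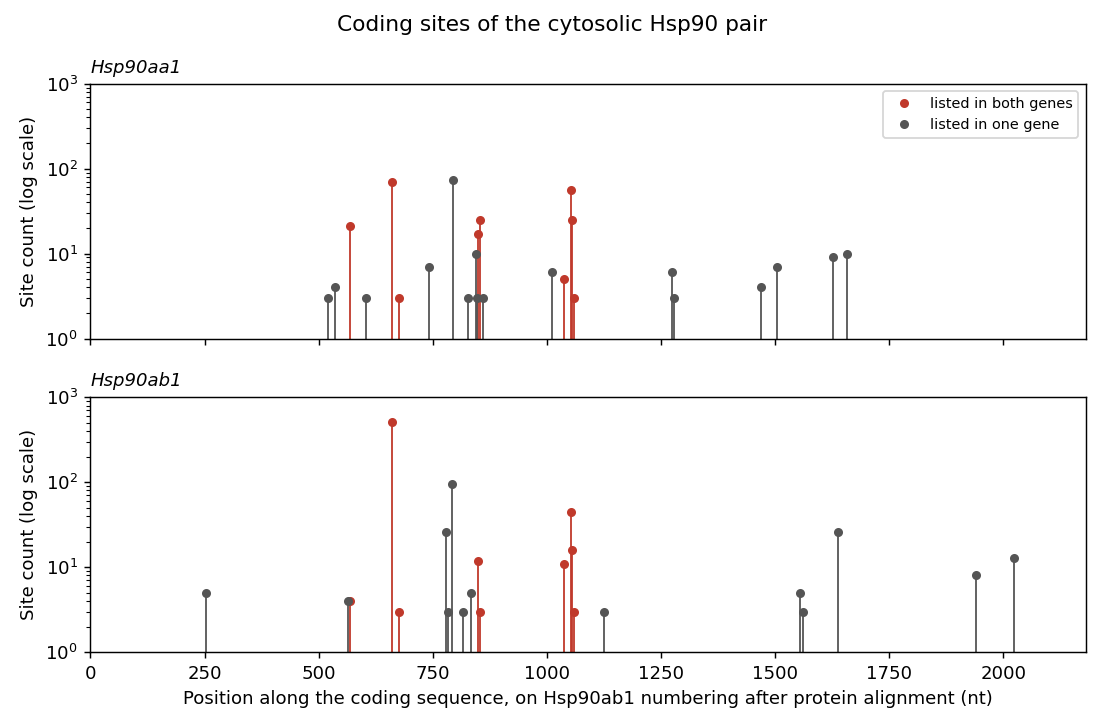
Site count (y axis, log scale) of each coding site of Hsp90aa1 (top) and Hsp90ab1 (bottom) along the aligned coding sequence (x axis, nt), with positions listed in both genes in red. The tallest shared position has counts of 70 in Hsp90aa1 and 509 in Hsp90ab1. The tallest positions without a partner in this alignment reach 74 in Hsp90aa1 and 96 in Hsp90ab1, where the alignment is uncertain.

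Hsp90b1 shared none of its 15 coding sites with either cytosolic gene, to which its protein was 49.3% and 49.6% identical. Its highest site was not coding but in the 3' UTR, 210 nt after the stop codon, and had a count of 37. The 5 sites of that 3' UTR lay between 173 and 225 nt after the stop codon, and the last exon held 43.0% of the counts of the gene. Its highest coding sites had counts of 16 (codon 321), 12 (codon 83), 10 (codon 535) and 10 (codon 536).

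Near-identical copies elsewhere in the genome limit what can be said of Hsp90aa1. For 20 of its 25 sites, the surrounding 51 nt also occurred letter for letter in an annotated pseudogene transcript (Gm12346, Gm5511 or Gm5844). No such match was found for any of the 23 sites of Hsp90ab1, so the 51 nt around its shared sites are not in Hsp90aa1. None of these pseudogenes had a listed site, and how reads that fit more than 1 place were assigned is not given. In Hsp90b1, 2 sites with a count of 10 each lie in exon sequence that overlaps 1810014B01Rik on the opposite strand.

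The Hsp70 family had the most sites, and its members fell into different patterns. Hspa12a, a distant and atypical member of the family, had 43 sites, all in the 3' UTR of its last exon. No other chaperone gene had more sites, and by number of sites it ranked 101 among all genes of the list. Of its 3611 nt of 3' UTR, a stretch from 1845 to 2112 nt after the stop codon held 20 sites and 73.6% of its counts. The 4 highest sites lay there, with a count of 135 at 2040 nt, 64 at 2004 nt, and 47 at both 1954 and 1877 nt. None of the 69 RAC cytosines of its coding sequence was listed, against 30 of the 115 in its 3' UTR. The following windows overlap and show a repeated sequence with sites at 1869, 1877 and 1881 nt. A further site in the repeat, at 1873 nt, had a count of 8.
Hspa12a, count 22: tggatggacagACggacagac
Hspa12a, count 47: cagacggacagACagacggat
Hspa12a, count 15: cggacagacagACggatggat

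Hspa8, the constitutive cytosolic Hsp70 (Hsc70), had 12 coding sites, 2 in the 3' UTR and 1 in the 5' UTR. Listed were 2 of the 4 RAC cytosines of its 83 nt 3' UTR and 9 of the 58 of its coding sequence. Its 2 highest sites were both coding, with 48 at codon 125 and 45 at codon 599 of 647 codons including the stop. The 5' UTR site, with a count of 22, was the only one of its kind among the 271 chaperone sites, 0.369% (0.00934 to 2.04), an interval that includes the 2.0% of the sites of other genes. For 12 of the 15 sites of Hspa8, the surrounding 51 nt also occurred in another annotated transcript, of a processed pseudogene or of the noncoding Gm26825, none of which was listed.
Hspa8, 5' UTR, count 22: ggtctcattgaACgcggaggc

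Hspa5 encodes BiP, the Hsp70 of the endoplasmic reticulum. It had 6 coding and 4 3' UTR sites, with 83.3% of its counts in the last exon. Its 2 highest sites were at codon 624 (count 19) and 321 nt into the 3' UTR (count 16). Codon 624 aligned with codon 599 of Hspa8, although the proteins were 65.7% identical, and this was the only shared position of the pair. Both are printed to show the common motif, GAACT.
Hspa8 codon 599, count 45: cagcagaaagaACtggagaaa
Hspa5 codon 624, count 19: aaaaagaaggaACtagaagaa

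The other Hsp70 pairs have too few coding sites for a rate of sharing. Hspa8 and Hspa2, the testis-enriched Hsp70 that is also made in brain, were 87.9% identical but shared none of their 12 and 4 coding sites, and only 1 of those 4 in Hspa2 faced a C in Hspa8. The highest site of Hspa2 was at codon 450, with a count of 16. Hspa8 and Hspa1a, the stress-inducible Hsp70, shared codon 427, with counts of 3 in Hspa8 and 5 in Hspa1a. That was the only site of Hspa1a, and the 51 nt around it were identical in Hspa1b, which had no listed site, so the site cannot be assigned to 1 of these 2 genes from sequence.

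Among the Hsp110-like exchange factors, Hsph1 (Hsp110) had 9 sites, of which the highest, with a count of 17, was the last base before the stop codon. Its 6 3' UTR sites had counts up to 15. Hspa4 (Apg-2) had 6 sites, all coding, with a highest count of 12 at codon 563. Hspa4l had 3 sites, all deep in a 3' UTR of 6714 nt, from 4415 to 5701 nt after the stop codon, with counts up to 9. Hspa13, a microsomal Hsp70, had 4 3' UTR sites within 130 nt of the stop codon, the highest with a count of 11. Hspa9, the mitochondrial Hsp70 (mortalin), had 1 site with a count of 3.
Hsph1, last base before the stop codon, count 17: catggacctggACtaggctct

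Sites of J-domain genes lay mostly in the 3' UTR, with 9 of 9 Dnaja, 15 of 22 Dnajb and 32 of 39 Dnajc sites. Together that was 56 of 70, 80.0% (68.7 to 88.6), against 63.2% of the sites of other protein-coding genes. Most of these 56 lay in Dnajc5 (17), Dnajb6 (12), Dnajc6 (10) and Dnaja1 (9), and Dnajb1, Dnajb2 and Dnajb5 had none. Dnajc5, the cysteine string protein of synaptic vesicles, had 17 sites, none of them before 885 nt of a 3' UTR of 5757 nt. The stretch from 2722 to 2883 nt held 10 sites and 74.8% of its counts. Its 3 highest sites lay within it at 2868, 2878 and 2883 nt, with counts of 39, 32 and 13, and share the context AAACA in an adenosine-rich run.
Dnajc5, count 32: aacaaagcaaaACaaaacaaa
Dnajc5, count 13: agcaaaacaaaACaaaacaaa

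Dnajc6, the neuronal auxilin, had 10 3' UTR and 2 coding sites with counts up to 11, the highest 81 nt after the stop codon. Dnaja1, a main cytosolic partner of Hspa8, had 9 sites, all in the 3' UTR. Its 2 highest sites had counts of 14 at 105 nt and 13 at 298 nt after the stop codon, and the rest of a 4203 nt 3' UTR beyond 791 nt had none. Dnajb6, known for holding back the aggregation of polyglutamine proteins, had 12 sites with counts up to 14. All 12 lay in the last exon of a short coding isoform, 1 to 547 nt after its stop codon, and not on the longest coding transcript. A retained-intron transcript covers 9 of them, and these transcripts cannot be told apart from the sites.
Dnajb6, count 14: aaacgaactcgACtttctgta

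**Figure D4:**
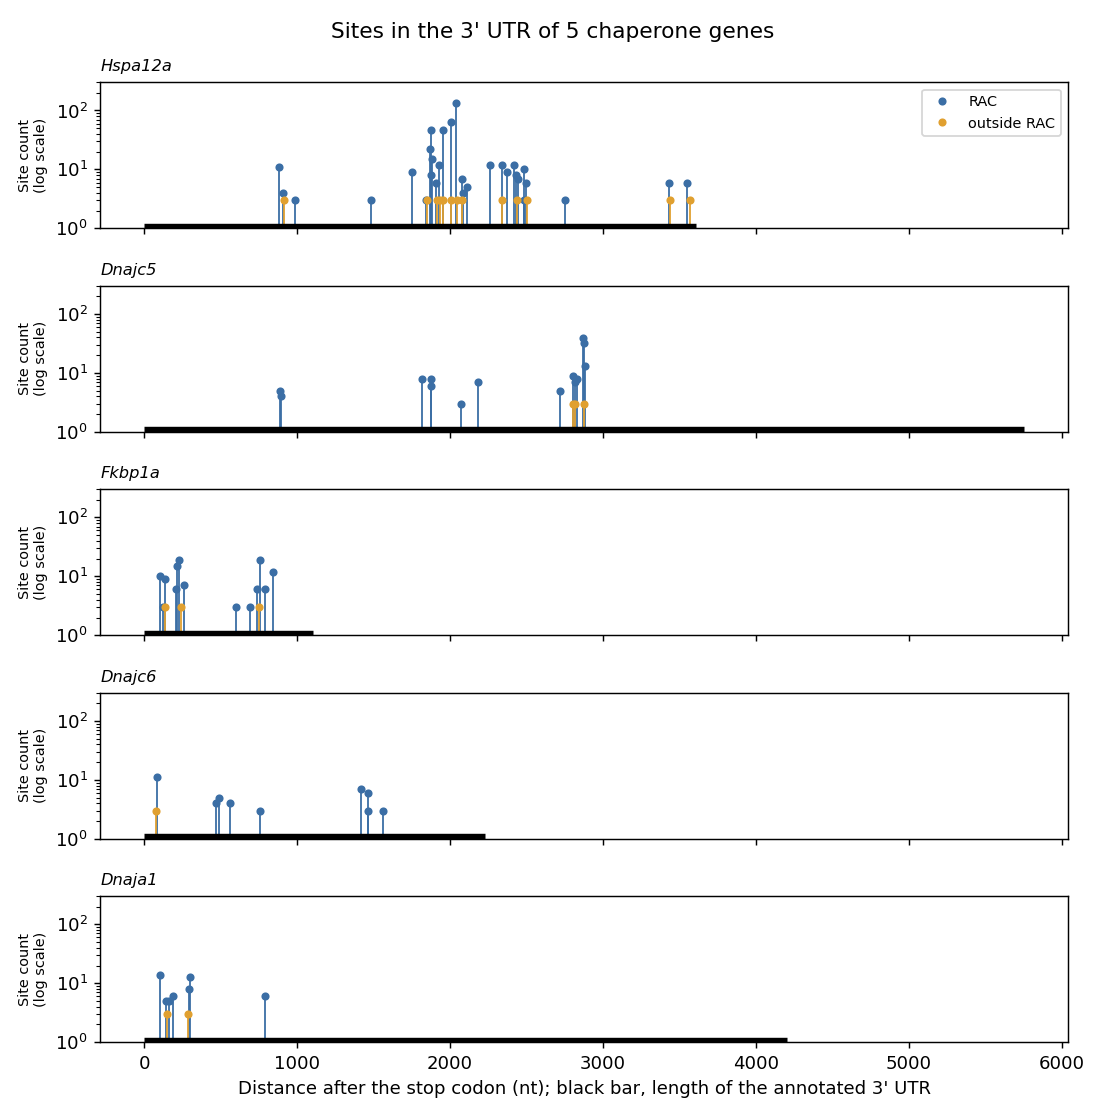
Site count (y axis, log scale) against distance after the stop codon (x axis, nt) for 5 chaperone genes, with RAC sites in blue and other sites in yellow. Sites of Hspa12a gather between 1845 and 2112 nt and those of Dnajc5 between 2722 and 2883 nt, whereas those of Fkbp1a and Dnaja1 lie nearer the stop codon.

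The other J-domain genes had few sites each, some of them coding. Dnajc21, a ribosome biogenesis factor, had 4, with counts up to 16 at codon 202. Dnajb5 had 4 sites with counts up to 5, of which 3 were coding. Dnajb1 (Hsp40), the main stress-inducible J-domain protein, had a single site at codon 120 with a count of 19, the same highest count as Fkbp1a with 16 sites. Dnajc13, an endosomal protein, had 1 coding site with a count of 13. Dnajb12 had 1 coding and 1 3' UTR site with a count of 6 each. Dnajc24, Dnajb14 and Dnajc3 had 2 3' UTR sites each with counts up to 8. Dnajb2 had 1 coding site and Dnajc1 had 1 3' UTR site, each with a count of 3.

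Fkbp1a (FKBP12), the target of rapamycin and FK506 and a partner of calcium release channels, had the most sites of the prolyl isomerases. All of its 16 sites lay in a 3' UTR of 1106 nt, where 13 of 25 RAC cytosines were listed, 52.0%. In the 3' UTR of Hspa12a that figure was 26.1%, and in that of Dnajc5 10.0%. None of the 8 RAC cytosines of its coding sequence was listed. The sites formed a near cluster of 9, from 101 to 257 nt after the stop codon, which held 59.1% of the counts, and a far group ending at 844 nt. Its 2 highest sites, both with a count of 19, lay 1 in each group, at 228 and 757 nt.
Fkbp1a, 228 nt after the stop codon, count 19: atatgccataaACctcaagtt
Fkbp1a, 757 nt after the stop codon, count 19: gtaatcttgtaACtattcaag

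Ppig, a nuclear cyclophilin with a tail rich in serine and arginine, had the opposite pattern, with 7 sites that were all coding. None of the 82 RAC cytosines of its 3630 nt 3' UTR was listed. Its counts reached 25 at codon 232 and 18 at codon 595. Fkbp2, an isomerase of the endoplasmic reticulum, had 1 3' UTR site with a count of 11. Ppib, the cyclophilin of the same compartment, had 2 sites with counts of 6 and 4, both on a retained-intron transcript.
Ppig codon 232, count 25: aggaaaaagaaACataggaaa

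The chaperonins had few sites with low counts. Cct4 had 2 sites on a retained-intron transcript, Cct6a 1 site in an exon annotated as noncoding with a count of 6, and Cct8 1 coding site with a count of 3. Hspd1, the mitochondrial Hsp60, had 2 coding sites with counts of 3 and 4. Bag4, a regulator of Hsp70, had 3 3' UTR sites, all at the lowest count of 3. Hspg2 and Ppip5k1, which are not chaperones, had 1 site each, with counts of 4 and 3.

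Set against the rest of the list, a larger share of chaperone sites was coding. Coding sequence held 118 chaperone sites, 43.5% (37.6 to 49.7), against 29.0% of the sites of other genes (28.4 to 29.5). The 3' UTR held 145 chaperone sites, 53.5% (47.4 to 59.6), against 58.7% in other genes (58.1 to 59.2), which lies inside the interval of the chaperone genes. Pooled over sites, the coding share depended on which genes were kept. Without the 3 Hsp90 genes, 27.6% of chaperone sites were coding (21.6 to 34.3) and 68.5% were in the 3' UTR (61.6 to 74.8). Hspa12a pulled the other way, and without it 51.8% were coding. With only the highest site of each gene kept, 47.4% were coding (31.0 to 64.2). That share was not computed for other genes, so it has no value to be set against. Noncoding exons held 7 chaperone sites, 2.58%, against 10.1% in other genes, but the other genes include long noncoding RNAs and the symbol rule takes almost only protein-coding genes. Within genes annotated as protein-coding, noncoding exons held 2.22% of chaperone sites (0.820 to 4.77), against 3.33% in other genes. On that basis coding sequence held 43.7% of chaperone sites (37.7 to 49.8), against 31.2% in other genes, and the 3' UTR 53.7% (47.6 to 59.8), against 63.2%.

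Placement along the transcript varied likewise. The stop codon and last exon shares cover only sites on a longest coding transcript, 252 of the 271 chaperone sites. They leave out the 12 sites of Dnajb6. Within 400 nt of the stop codon lay 24.2% of chaperone sites (19.1 to 30.0), against 30.4% in other genes, and without the Hsp90 genes 28.3% (21.9 to 35.4). In the last exon lay 60.7% of chaperone sites (54.4 to 66.8), against 70.5% in other genes, and without the Hsp90 genes 79.9% (73.4 to 85.4). Among coding sites only, 65.5% of chaperone sites (56.0 to 74.2) lay within 100 nt of an exon junction, against 61.3% in other genes (60.2 to 62.4).

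Counted by site and without regard to site count, DRACH was more frequent at coding RAC sites of chaperone genes than of other genes. DRACH, the usual m6A context, is a RAC that has no C just before it and no G just after its C. Of the RAC sites in coding sequence, 62 of 89 were DRACH in chaperone genes, 69.7% (59.0 to 78.97), against 55.5% in other genes (54.3 to 56.7). Without the Hsp90 genes the share was 68.2% (52.4 to 81.4), an interval that includes the share of other genes. In the 3' UTR the shares were closer, 81.2% in chaperone genes (72.8 to 88.0) and 78.1% in other genes. Over all RAC sites, DRACH was 75.0% in chaperone genes (68.5 to 80.7) and 71.0% in other genes. With only the highest site of each chaperone gene kept it was 61.1% (43.5 to 76.9), which was not computed for other genes. The highest chaperone site, count 509 in Hsp90ab1, and its partner in Hsp90aa1, count 70, are both GAACG and so outside DRACH.

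**Figure D5:**
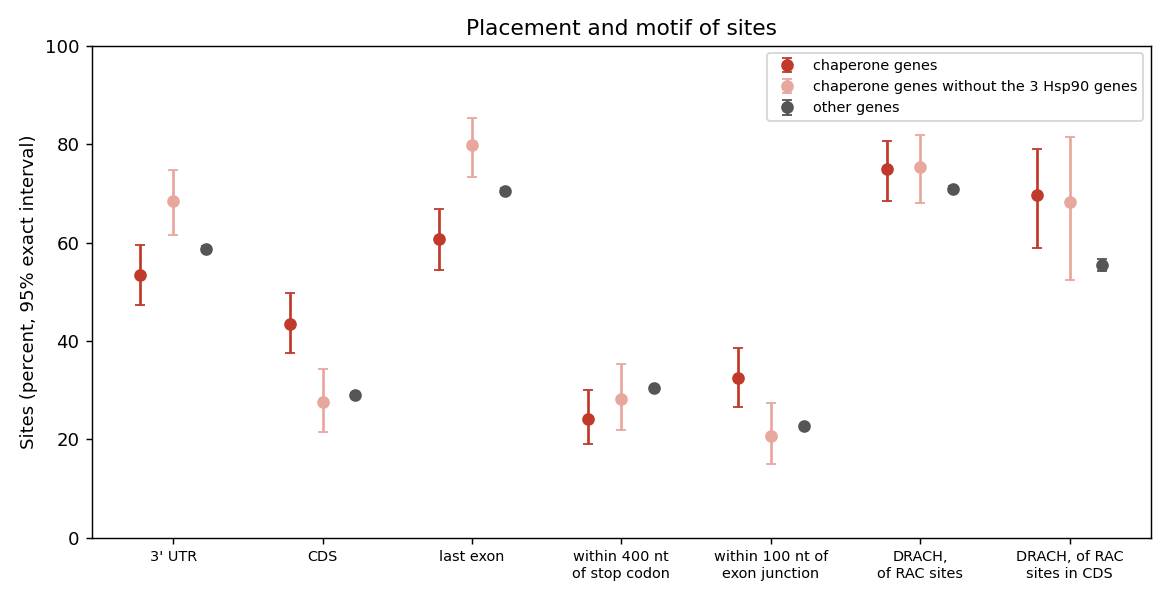
Percent of sites (y axis, points with 95% exact intervals for counting error) with each placement or motif (x axis), for chaperone genes, chaperone genes without the 3 Hsp90 genes, and other genes. Coding shares are 43.5%, 27.6% and 29.0%, in that order, and the DRACH shares of coding RAC sites are 69.7%, 68.2% and 55.5%.

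A C-to-U change at a coding site may or may not alter the codon. At 53.4% of chaperone coding sites (44.0 to 62.6) the change would keep the amino acid, against 48.5% in other genes, and at 8.47% (4.14 to 15.0) it would make a stop codon, against 11.4%. These intervals include the shares of the other genes. The 10 stop-making sites were led by codon 226 of Hsp90aa1, count 70, one of the sites shared with Hsp90ab1, and codon 595 of Ppig, count 18. Codon 562 of Hsp90aa1, codon 391 of Dnajc21 and codon 535 of Hsp90b1 followed with a count of 10 each, and the other 5 had counts of 3 to 7. The edits are made by the fusion in these mice, and m6A itself does not change a codon.

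Partners of the chaperones outside the rule were set beside them from a list of 46 genes with cochaperones, folding factors of the endoplasmic reticulum and stress regulators. This list was chosen with earlier results of these data known and was not matched for expression. Of the 46 genes, 21 had a site, 45.7% (30.9 to 61.0), against 17.4% of protein-coding symbols, a difference that was not tested. Their median was 2 sites, the same as over all genes with a site, and 2 of the 21 had 10 or more, 9.52% (1.17 to 30.4), against 16.9% of all genes with a site. Canx (calnexin) had 19 sites with counts up to 61, and Calr (calreticulin) had 12 with counts up to 26. Both are lectin chaperones of the endoplasmic reticulum, the compartment of Hsp90b1 and Hspa5. Clu, a secreted chaperone of astrocytes, had 8 sites with counts up to 51. Cdc37l1, related to a kinase-specific Hsp90 cochaperone, had 5 sites with counts up to 15, and Hsbp1, which binds the heat shock factor Hsf1, had 5 sites at a count of 3 each.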

How the data were processed

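A single list of C-to-U sites from 4 sublibraries of a pool of mouse cortical cells was used. The authors deposited 1 whole number per site, which was taken as an unnormalized count. Alignment was with STAR 2.7.5 to mm10, per the submitters' processing notes, and sites were found with the Bullseye pipeline, per the series text. The sources used here do not give the filters, the use made of the mutant fusion, or whether the count is of cells or reads. Sites can only be found where reads fall, and kit and read placement therefore shape where sites are listed. Neuronal nuclei from sorting, which the series text names too, were not analysed here.

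Sites were placed by symbol, strand and position on GENCODE M21 with Python 3.11.15 and pandas 2.3.3. All 271 chaperone sites fell on an annotated exon with a C on their strand. Where transcripts differed, the order was 3' UTR, CDS, 5' UTR, noncoding exon, and a transcript was coding only where annotated as protein-coding. Distances, codons and exons refer to the longest coding transcript. Proteins translated from these transcripts were aligned with Biopython 1.88 (gap open -11, gap extension -1). Intervals came from scipy 1.17.1. The annotation steps were tested on simulated sites.

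The genes, lists and comparisons were chosen with earlier results of these data known. Genes were named where they were among the 25 members with the most sites, led a family, held 1 of the 10 highest sites or were among the 5 partner genes with the most sites, ties kept. The remaining members were named to account for every gene, after their values were seen. Cryab, a partner gene, was also named after its value was seen. Alternatives left out sites at the lowest count, merged sites within 10 nt, kept 1 site per gene, left out genes, or changed the region order, transcript, stop codon window or motif denominator.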

Additional observations from a re-analysis of the deposited data

How the results depend on the processing

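Of 49 comparisons of a chaperone value with the same value under another setting, 37 stayed within its interval, or within 1.5 times for counts of sites and sites per kb, and 12 moved. Leaving out sites at the lowest count gave 169 sites and a median site count of 8. Keeping only the highest site of each gene gave a 3' UTR share of 42.1%, a share within 400 nt of the stop codon of 36.4%, a DRACH share of 61.1% and a median count of 11. Leaving out Hspa12a gave a 3' UTR share of 44.7% and a coding share of 51.8%. Leaving out the 3 Hsp90 genes, chosen after seeing the data, gave 68.5% and 27.6%. A stop codon window of 200 nt gave 16.3%, and taking all sites as denominator gave a DRACH share of 57.6%. Counting every transcript with an annotated reading frame as coding, or keeping only genes annotated as protein-coding, both also chosen after seeing the data, moved neither share beyond its interval. Read depth is unknown, so it could not be adjusted for. No paired analysis was possible because sublibraries and replicates are pooled in 1 list.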

Other observations

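Of the 271 chaperone sites, 63 were outside RAC, each at the lowest count. Of these, 45 lay within 10 nt of a RAC site of the same gene, 71.4% (58.7 to 82.1), against 67.7% in the other genes (66.5 to 68.8). The median distance to the nearest RAC site was 6 nt in both. Among neighbouring sites of a gene, 35.2% of the gaps in chaperone genes (29.1 to 41.7) and 34.2% in other genes were 10 nt or less.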
